A study of Mus musculus with 4 samples.

Results

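The respiratory chain genes described here are 50 genes: the 13 proteins encoded by mouse mitochondrial DNA and 37 nuclear-encoded subunits of complexes I to IV. They were taken by symbol from the deposited table of estimated counts, whose 54393 identifiers were matched to GENCODE M21, and all 50 were among the 18917 genes that passed the filter on low counts. Bulk RNA sequencing covered 4 libraries of mouse mammary epithelial cells, with 2 WT and 2 Dnp63 cKO libraries, 1 of each genotype at 10 days and 1 at 5 weeks after tamoxifen. The question of the design was what the loss of DNp63, the isoform of the transcription factor p63 that marks basal epithelium, does to these cells after induction at puberty.

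Tamoxifen (1.5 mg/ml) was given at 4 weeks of age. The protocol names iK14-Cre; DNp63 f/f mice for every library, so the WT libraries are WT by their genotype label and no other genotype is named for them. K14 is a basal keratin, and a Cre driven from it acts in basal cells and not in every cell of the gland. Each library started from 100000 cells kept after CD45, CD31 and Ter119 cells (leukocytes, endothelium and red cells) had been removed, a sort that leaves fibroblasts in. The growth protocol speaks of glands at 5 weeks and 35 weeks of age, which does not match the 5 weeks label, and the label was used. The labels do not tell whether separate animals were used, so p-values measure only the spread between these 4 libraries. With 1 library per genotype and time, a gene's own spread is the change of its genotype difference between 10 days and 5 weeks. The test pools it with the spread of other genes. A genotype difference that changes with time therefore counts as error, and no test measured spread between replicates.

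The respiratory chain passes electrons from NADH and succinate through complexes I, II, III and IV to oxygen, and the proton gradient it builds drives ATP synthase, complex V. Most subunits are encoded in the nucleus and imported, while a small set of core subunits is transcribed inside the mitochondrion. Mitochondrial mRNAs are cut from long transcripts of both strands of the circular genome, so members of that set share precursors and are not independent readouts.

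Libraries held between 31714181 and 79122250 counts, and the deepest was WT at 5 weeks. The epithelial markers Epcam, Krt8 and Krt18 were present in every library, with Epcam between 572.2 and 841.9 CPM (counts scaled to library size by TMM, edgeR's trimmed mean of log ratios). Fibroblast collagen was also abundant, with Col3a1 between 7048 and 19620 CPM. Trp63, the gene of p63, was lower in each cKO library (12.84 CPM at 10 days, 25.48 CPM at 5 weeks) than in its WT partner (46.77 and 160.5 CPM), which follows the labels. In bulk samples fewer cells of a type and less RNA per cell cannot be told apart.

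Several of the mitochondrially encoded genes have near-identical copies in nuclear DNA, on the minus strand of chromosome 1 (GRCm38), and these sequences are shown because they decide which row a read is credited to. Over 783 compared bases mt-Co3 and its copy Gm28437 had 0 mismatches, and the same held for mt-Co2 and Gm28661 over 681 bases, mt-Atp6 and Gm10925 over 678 bases and mt-Nd4l and Gm10222 over 294 bases. For mt-Nd3 and Gm28438 there was 1 mismatch in 345 bases, T3C, counted from 1 at the first base of mt-Nd3. Windows of 61 bases from GENCODE M21 transcripts follow, in lower case with mismatched bases in capitals, from chrM:9459-9519 and chr1:24613059-24613119 for mt-Nd3, chrM:8968-9028 and chr1:24613550-24613610 for mt-Co3, and chrM:6381-6441 and chr1:24616137-24616197 for mt-Co1 with its shorter copy Gm29216.
mt-Nd3: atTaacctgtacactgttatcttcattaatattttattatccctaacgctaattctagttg
Gm28438: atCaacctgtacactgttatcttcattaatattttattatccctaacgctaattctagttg
mt-Co3: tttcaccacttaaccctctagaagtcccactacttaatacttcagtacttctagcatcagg
Gm28437: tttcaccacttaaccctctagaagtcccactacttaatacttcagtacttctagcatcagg
mt-Co1: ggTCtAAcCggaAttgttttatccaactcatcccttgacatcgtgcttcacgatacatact
Gm29216: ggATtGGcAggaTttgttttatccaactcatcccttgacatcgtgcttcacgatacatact
Between mt-Co1 and Gm29216 there were 6 mismatches in 492 bases, all within the window shown. A read that lies inside an identical stretch carries no information on its origin.

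The mitochondrially and the nuclear-encoded transcripts did not move together across the 4 libraries. The 13 mitochondrially encoded genes took 1.21% of counts in WT and 0.786% in cKO at 10 days, and 1.14% in WT and 1.99% in cKO at 5 weeks. The 37 nuclear-encoded genes took 0.224% in WT and 0.21% in cKO at 10 days, and 0.294% in WT and 0.193% in cKO at 5 weeks. Exact (Clopper-Pearson) 95% intervals for these shares were narrow, such as 1.99% to 1.999% for the mitochondrial share in cKO at 5 weeks, and cover counting error only. The mitochondrial share was therefore highest and the nuclear share lowest in the same library, cKO at 5 weeks.

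**Figure D1:**
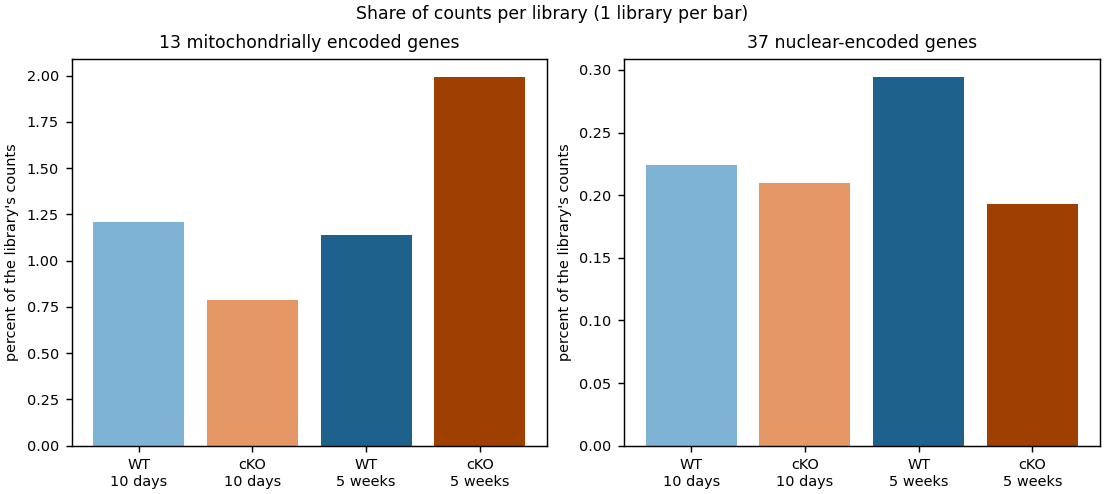
Percent of each library's counts in the 13 mitochondrially encoded genes (left) and the 37 nuclear-encoded genes (right), 1 bar per library, each axis from 0. The mitochondrial share is highest at 1.99% in cKO at 5 weeks, and the nuclear share is highest at 0.294% in WT at 5 weeks.

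Counts of the 13 genes exceeded those of the 37 by 5.4 times in WT and 3.74 times in cKO at 10 days, and by 3.89 times in WT and 10.3 times in cKO at 5 weeks. This ratio is taken inside a library and does not depend on how libraries are scaled. It does depend on how counts are split with the nuclear copies. With copies added to the 13 it was 6.96 (WT) and 5.28 (cKO) at 10 days, and 4.82 (WT) and 12.6 (cKO) at 5 weeks. On the log2 scale the ratio without copies was lower in cKO than in WT at 10 days, with a difference of -0.53. At 5 weeks it was higher in cKO, with a difference of 1.41. The mean difference of 0.44 between genotypes became 1.17 without cKO at 10 days, 0.68 without WT at 10 days, 0.2 without WT at 5 weeks and -0.29 without cKO at 5 weeks, so its direction rests on that last library. With 2 libraries per genotype no exact permutation test can reach 0.05, and none was made.

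By the edgeR quasi-likelihood test with time as a block, 0 of the 50 members passed an adjusted p of 0.05 for genotype, against 0.0581% of all genes tested (11 of 18917). At an unadjusted p under 0.05 there were 2 members lower in cKO, both nuclear-encoded, and 0 higher, where 5.8% of all genes were lower and 5.8% higher. DESeq2 and limma-voom also called 0 members for genotype, in fits that called 513 and 20 genes in all. For time, 0 members passed by edgeR, against 0.0634% of all genes, and 1 member (mt-Atp6) had an unadjusted p under 0.05 with higher values at 5 weeks, where 3.09% of all genes did. DESeq2 called that gene for time (log2 fold change 1.51, adjusted p 0.0239), in a fit that called 192 genes for time, while limma-voom called 0 members. In simulated counts of this design the genotype test recovered 13 of 50 genes changed 2-fold and 48 of 50 changed 4-fold, and all members but mt-Nd3 and mt-Atp8 had fitted differences under 2-fold.

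Complex I receives electrons from NADH, and its 7 mitochondrially encoded subunits form the membrane arm that pumps protons. Transcripts of mt-Nd1 were at 727 CPM (WT) and 566.8 CPM (cKO) at 10 days, and at 642.5 CPM (WT) and 1185 CPM (cKO) at 5 weeks. Those of mt-Nd2 were at 433.6, 329, 383.2 and 809.1 CPM in the same order. The cKO values lay on both sides of the WT values, lowest at 10 days and highest at 5 weeks. The same order of libraries held for mt-Nd4 (1025, 719.9, 876.4 and 1931 CPM), the gene whose transcript is joined to that of mt-Nd4l. For mt-Nd4l the values were 191.1, 111.8, 138.4 and 294.9 CPM. For mt-Nd5, another of the large proton-pumping subunits, they were 661, 454.8, 600 and 862.8 CPM. The genotypes overlapped for these 5 genes, and their fitted log2 fold changes ranged from -0.01 ± 0.356 (SE) for mt-Nd5 to 0.34 ± 0.429 for mt-Nd2, with adjusted p-values of 0.996 and 0.814 (edgeR).

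The light strand of mitochondrial DNA carries mt-Nd6, the other 12 genes being on the heavy-strand transcript. Its level was 4.093 CPM (WT) and 3.116 CPM (cKO) at 10 days, and 5.283 CPM (WT) and 6.539 CPM (cKO) at 5 weeks. Per kilobase it averaged 9.167 CPM over the 4 libraries, against 353.4 CPM per kilobase for its neighbour mt-Nd5. Despite this low level the libraries fell in the same order as for mt-Nd1, except that WT at 5 weeks lay above WT at 10 days.

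Cytochrome b of complex III, encoded by mt-Cytb, was at 1843 CPM (WT) and 1302 CPM (cKO) at 10 days, and at 1733 CPM (WT) and 2535 CPM (cKO) at 5 weeks. The fitted genotype difference was 0.02 ± 0.409 (log2, SE; adjusted p 0.987), a mean of a log2 ratio of -0.50 at 10 days and of 0.55 at 5 weeks. No annotated nuclear copy matched it, so its counts were not shared with one.

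Complex IV, cytochrome c oxidase, hands electrons to oxygen, and its catalytic core is mt-Co1, mt-Co2 and mt-Co3. Per kilobase of transcript mt-Co1 had the highest level of all members, with a mean of 2884 CPM. It was at 4366 CPM (WT) and 3038 CPM (cKO) at 10 days, and at 4298 CPM (WT) and 6122 CPM (cKO) at 5 weeks. Levels of mt-Co2 were 1241, 540.7, 1597 and 2324 CPM in the same order. For mt-Co3 they were 833.4, 471.9, 870.1 and 2460 CPM. In all 3 the cKO library was below WT at 10 days and above WT at 5 weeks.

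Complex V makes ATP, and 2 of its membrane subunits come from the overlapping genes mt-Atp8 and mt-Atp6. For mt-Atp6 the levels were 343.1 CPM (WT) and 229.8 CPM (cKO) at 10 days, and 537.7 CPM (WT) and 1199 CPM (cKO) at 5 weeks. For mt-Atp8 they were 63.87, 75.77, 66.36 and 353.3 CPM. This was the only one of the 13 with both cKO libraries above both WT libraries, a state found in 22.6% of all genes tested. Its fitted difference was 1.33 ± 0.649 (log2, SE; edgeR adjusted p 0.544), and most of it came from 5 weeks, where the log2 ratio was 2.41 against 0.25 at 10 days. Without the filter on low counts mt-Atp8 passed the test (adjusted p 0.00235), in a fit that called 1235 genes.

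**Figure D2:**
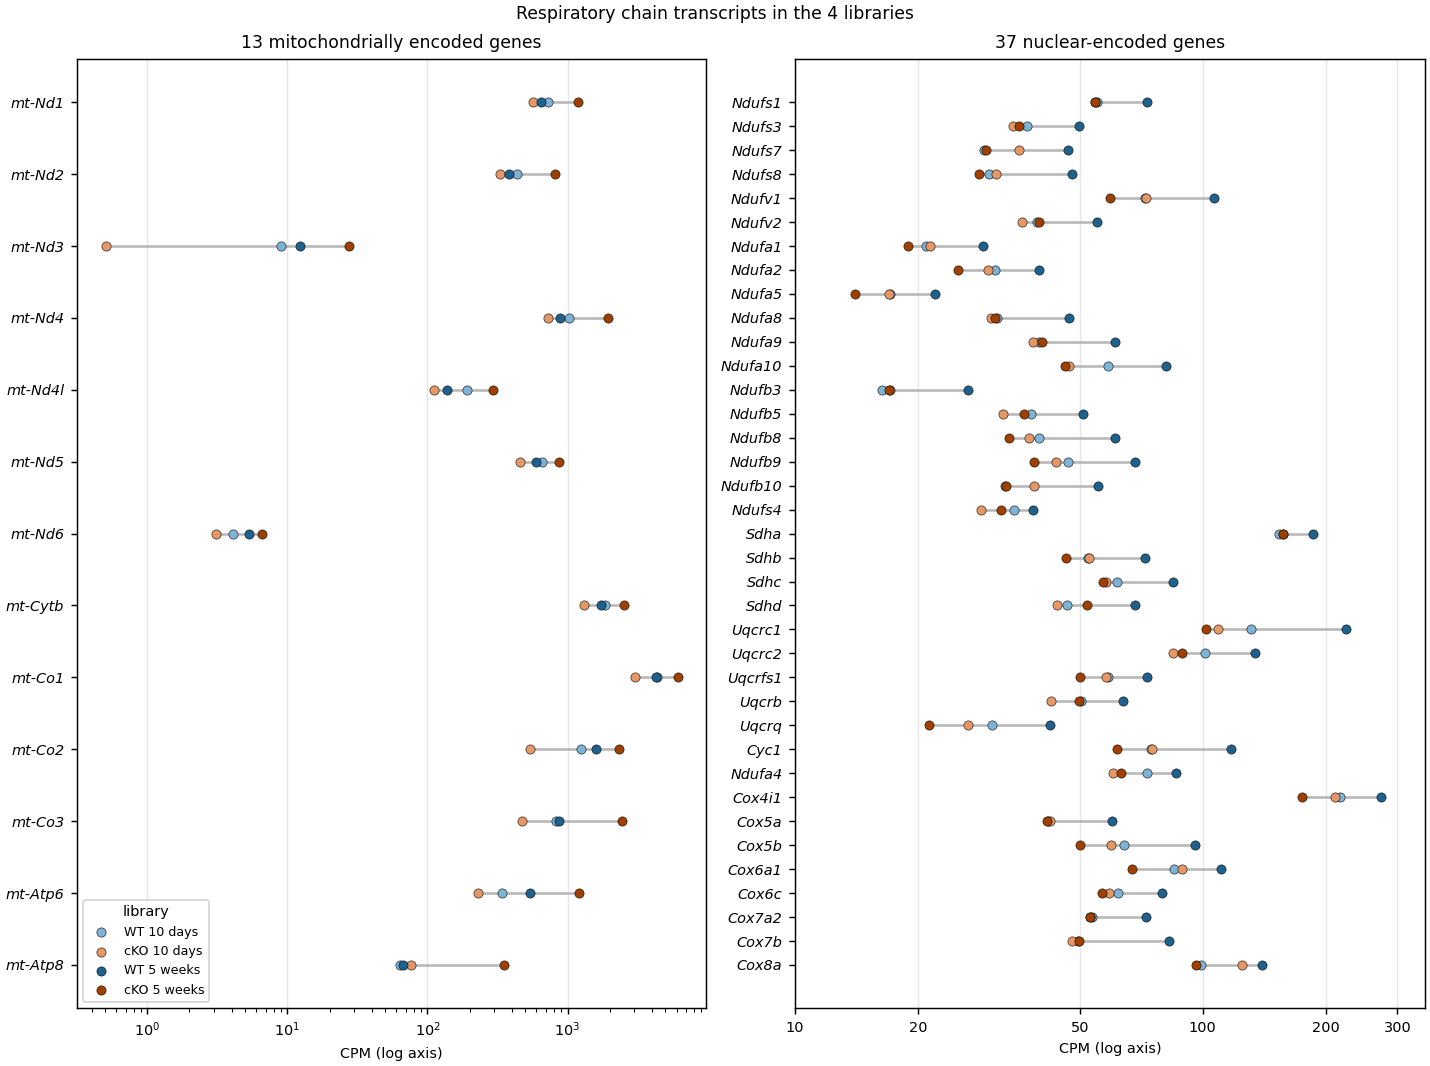
Levels of the 13 mitochondrially encoded genes (left) and the 37 nuclear-encoded genes (right) in CPM on log axes, 1 point per library, with a grey line from the lowest to the highest. On the left all 13 are highest in cKO at 5 weeks and 12 lowest in cKO at 10 days, and on the right all 37 are highest in WT at 5 weeks.

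Across the 13 genes, 12 had a cKO to WT ratio below 1 at 10 days and above 1 at 5 weeks, against 19.4% of all genes tested. The remaining gene, mt-Atp8, was above 1 at both. Median log2 ratios were -0.52 at 10 days and 1.08 at 5 weeks, where the medians over all genes tested were 0 and -0.01. All 13 were highest in cKO at 5 weeks and 12 were lowest in cKO at 10 days. Within cKO all 13 were higher at 5 weeks than at 10 days (median log2 ratio 1.40, 50.3% of all genes above 0), while within WT 6 of 13 were (median -0.02, 54.5% of all genes above 0). The fitted genotype median of 0.16 became 0.35 with all 4 libraries and no time term. Fits that left out 1 library, which also had no time term, gave -0.53 without cKO at 5 weeks and 0.82, 0.41 and 0.27 without cKO at 10 days, WT at 10 days and WT at 5 weeks. Each ratio compares 1 library with 1 library, so the difference between time points has no test.

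The copies on chromosome 1 took a large and uneven part of the counts. For mt-Nd3 the copy held 83.49% of the joint counts in WT and 98.84% in cKO at 10 days, and 73.52% in WT and 78.87% in cKO at 5 weeks. The row of mt-Nd3 itself was thus at 9.058, 0.5037, 12.23 and 27.51 CPM, and its log2 ratio of -4.05 at 10 days, the lowest of the 50, compares 16 counts in cKO with 312 in WT. With the copy added, mt-Nd3 was at 54.87 CPM (WT) and 43.6 CPM (cKO) at 10 days, and at 46.18 CPM (WT) and 130.2 CPM (cKO) at 5 weeks, and the ratio at 10 days was -0.33.

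For mt-Co3 the copy held 37.5%, 52.61% and 30.11% of joint counts in WT and cKO at 10 days and WT at 5 weeks, and 0% in cKO at 5 weeks, where all 83527 counts stood on mt-Co3. For mt-Co2 the share of copies was 18.65%, 55.8%, 3.8% and 11.69% in the same order of libraries. That of mt-Atp6 was 67.78%, 74.75%, 49.81% and 60%. By contrast the 2 annotated copies of mt-Co1 held between 26.08% and 29.89% in the 4 libraries. Gm28439, identical to mt-Nd4 over 876 bases, held 0 counts in every library.

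**Figure D3:**
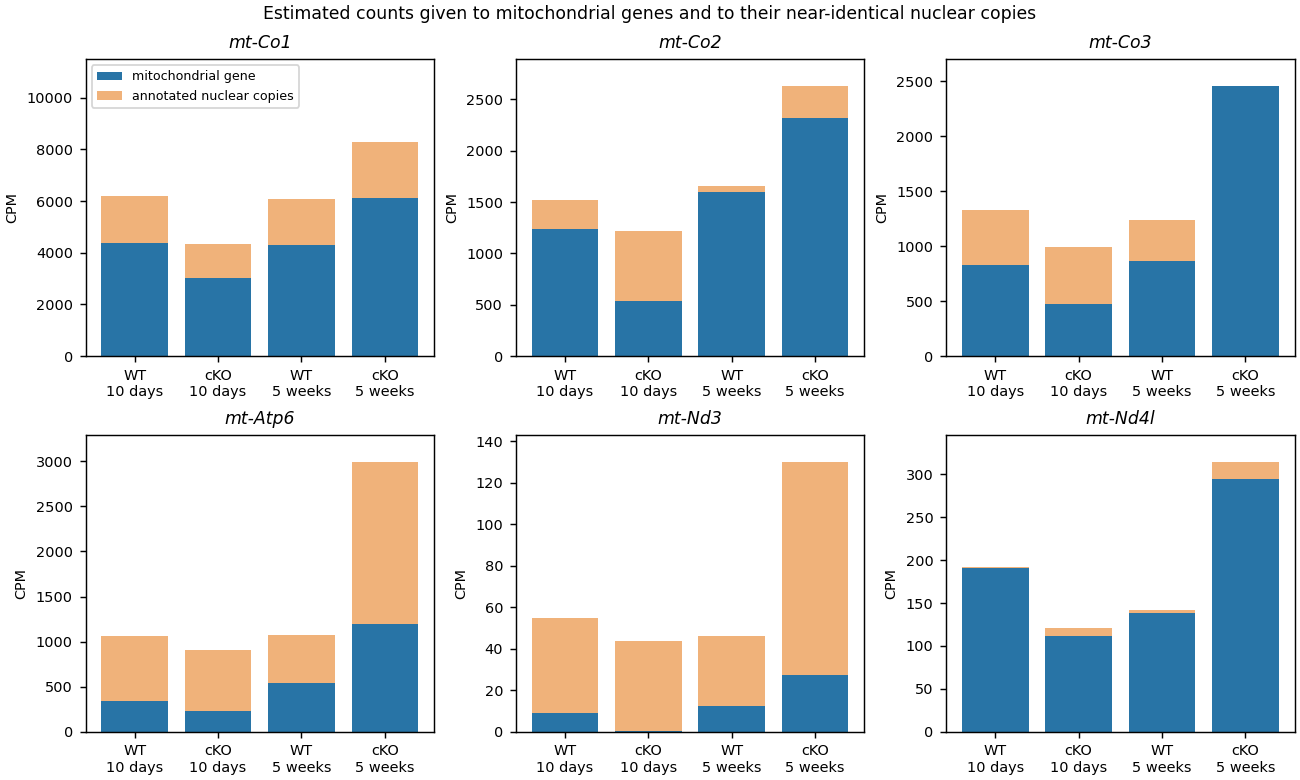
Estimated counts in CPM credited to 6 mitochondrially encoded genes (blue) and to their annotated nuclear copies (orange), stacked, 1 bar per library, each axis from 0. The copies' part differs between libraries, from 98.84% for mt-Nd3 in cKO at 10 days to 0% for mt-Co3 in cKO at 5 weeks, while the summed bars are highest in cKO at 5 weeks for all 6 genes.

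Adding each gene's copies, a step chosen after the data were seen, left the opposite ratios in place: 12 of 13 were still below 1 at 10 days and above 1 at 5 weeks. Summed medians were -0.40 at 10 days and 0.98 at 5 weeks on the log2 scale, and the ratios at 10 days then ranged from -0.67 (mt-Nd4l) to 0.25 (mt-Atp8). The summed mt-Atp6 was at 1065, 910.3, 1071 and 2999 CPM, and its time difference went from 1.52 (unadjusted p 0.0323, adjusted p 0.824) to 0.86 (unadjusted p 0.152, adjusted p 1, edgeR). As shares of the summed 13, mt-Co1 was at 41%, 39.1% and 41.9% in 3 libraries and at 33.8% in cKO at 5 weeks, while mt-Atp6 was at 7.04%, 8.22%, 7.35% and 12.2% and mt-Atp8 at 0.422%, 0.684%, 0.455% and 1.44%. The makeup of the mitochondrial mRNA therefore differed most in that library, toward the ATP synthase pair.

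The ribosomal RNAs of the mitochondrion, mt-Rnr1 and mt-Rnr2, are cut from the same strand. Their summed level was 236.5 CPM (WT) and 325.3 CPM (cKO) at 10 days, and 271.1 CPM (WT) and 433.5 CPM (cKO) at 5 weeks. Both cKO libraries were above both WT libraries, a state found in 22.6% of all genes tested. At 10 days the rRNA level was thus higher in cKO, where the mRNAs of 12 of the 13 genes were lower in cKO. The fitted differences were 0.55 ± 0.213 for mt-Rnr1 (unadjusted p 0.0453, adjusted p 0.419) and 0.59 ± 0.209 for mt-Rnr2 (unadjusted p 0.0332, adjusted p 0.391, edgeR). How far library preparation keeps these RNAs was not tested.

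Nuclear-encoded subunits showed another pattern. All 37 were highest in WT at 5 weeks, and 37 of 37 had a cKO to WT ratio below 1 at 5 weeks (50.9% of all genes did), with a median of -0.61 on the log2 scale. At 10 days the median was -0.05 and ratios ranged from -0.31 to 0.33. In 25 of 37 cKO was below WT at both times, against 30.4% of all genes, and the other 12 were above WT at 10 days and below it at 5 weeks. In 21 of 37 both cKO libraries lay below both WT libraries, against 23.3% of all genes. The fitted genotype median was -0.33, against -0.01 over all genes tested, and it became -0.34 without the time term and, also without that term, -0.10 when WT at 5 weeks was left out and -0.54 when WT at 10 days was.

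Within WT all 37 were higher at 5 weeks than at 10 days, with a median log2 ratio of 0.47, and within cKO 11 of 37 were, with a median of -0.06. The lowest library was cKO at 5 weeks for 22 genes, cKO at 10 days for 11 and WT at 10 days for 4. So 3 of the libraries were close to each other for these genes and WT at 5 weeks stood above them. That library was also the deepest and had the highest basal marker sum, and the part of either in the result was not tested.

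**Figure D4:**
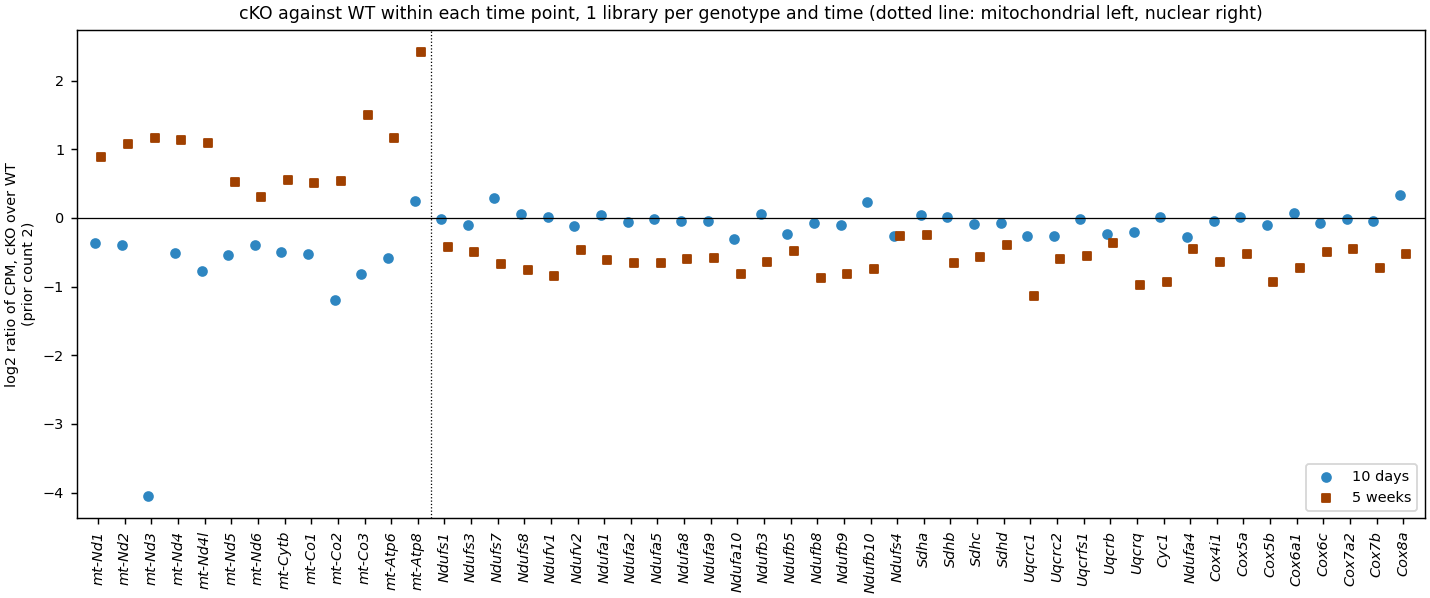
Log2 ratio of cKO to WT for each of the 50 genes at 10 days (circles) and at 5 weeks (squares), from 1 library per genotype and time, mitochondrially encoded genes left of the dotted line. At 5 weeks the 13 lie between 0.31 and 2.41 and the 37 between -1.14 and -0.25, with no overlap, and at 10 days the 37 lie between -0.31 and 0.33.

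In the peripheral arm of complex I, Ndufv1 carries the site where NADH is oxidised. It was at 72.23 CPM (WT) and 72.62 CPM (cKO) at 10 days, and at 106.4 CPM (WT) and 59.32 CPM (cKO) at 5 weeks. Ndufs7, which holds the last iron-sulfur cluster of the chain to ubiquinone, was at 29.06, 35.45, 46.82 and 29.43 CPM in the same order. In both the genotypes overlapped, and WT at 5 weeks was the high library. The 6 nuclear core subunits had fitted genotype differences between -0.42 (Ndufv1, adjusted p 0.606) and -0.19 (Ndufs7, adjusted p 0.849), and 2 of the 6 had cKO below WT without overlap (23.3% of all genes).

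Among the 12 accessory subunits of complex I, Ndufa10 had the lowest fitted difference. It was at 58.44 CPM (WT) and 47 CPM (cKO) at 10 days, and at 81.31 CPM (WT) and 45.89 CPM (cKO) at 5 weeks. Both cKO libraries were below both WT libraries, and the difference was -0.57 ± 0.22 (log2, SE; unadjusted p 0.0443, adjusted p 0.419, edgeR). At the other end Ndufb10 was at 32.69, 38.44, 55.23 and 32.9 CPM, with overlap and a difference of -0.26 ± 0.296. Left-out libraries moved the Ndufa10 value to between -0.81 (no WT at 10 days) and -0.33 (no WT at 5 weeks), without the time term. In 8 of the 12 cKO lay below WT without overlap, against 23.3% of all genes.

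Complex II, succinate dehydrogenase, is the complex with no mitochondrially encoded subunit and is also an enzyme of the TCA cycle. Its flavoprotein Sdha was at 153.4 CPM (WT) and 157.4 CPM (cKO) at 10 days, and at 186.6 CPM (WT) and 157.1 CPM (cKO) at 5 weeks. The membrane anchor Sdhc was at 61.49, 57.8, 84.71 and 57.03 CPM. Of the 4 subunits only Sdhc had cKO below WT without overlap (23.3% of all genes), and the log2 ratios at 5 weeks lay between -0.65 (Sdhb) and -0.25 (Sdha).

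Complex III passes electrons from ubiquinol to cytochrome c. Its core subunit Uqcrc1 had the lowest fitted genotype difference of the 37, with 131.3 CPM (WT) and 108.8 CPM (cKO) at 10 days and 224 CPM (WT) and 101.9 CPM (cKO) at 5 weeks. The genotypes did not overlap, and the difference was -0.70 ± 0.275 (log2, SE; unadjusted p 0.0473, adjusted p 0.423, edgeR). In fits with no time term it was -1.09 when WT at 10 days was left out and -0.32 when WT at 5 weeks was. The Rieske iron-sulfur protein Uqcrfs1 was at 58.47, 58.05, 73.09 and 49.99 CPM, with a difference of -0.28 ± 0.222. Of the 6 nuclear subunits 5 had cKO below WT without overlap (23.3% of all genes), and the exception was Cyc1, cytochrome c1.

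Among 9 nuclear genes counted with complex IV (Ndufa4, named for complex I, is among them), Cox4i1 had the highest level, at 217 CPM (WT) and 211.6 CPM (cKO) at 10 days and at 274.3 CPM (WT) and 175.4 CPM (cKO) at 5 weeks. Cox5b had the lowest fitted difference, -0.52 ± 0.262 (adjusted p 0.515), from 64.25, 59.68, 95.57 and 49.93 CPM. Cox8a had the highest, -0.10 ± 0.27 (adjusted p 0.921), from 98.97, 124.8, 139.5 and 96.35 CPM. In Cox4i1 and Cox5b cKO was below WT without overlap, and in Cox8a the genotypes overlapped. Cox6c shares sequence with 2 processed pseudogenes that held 16.08% to 19.51% of the joint counts, close to even across libraries.

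Per kilobase of transcript the 37 nuclear genes averaged between 19.63 CPM (Ndufs4) and 294.7 CPM (Cox4i1), and the 13 mitochondrial genes between 9.167 CPM (mt-Nd6) and 2884 CPM (mt-Co1). The median of the 13 was 3.92 log2 units above that of the 37 on this scale. Most nuclear members are short, with 20 of 37 transcripts under 1000 bases. Over all 1313 protein-coding nuclear genes of that length the median log2 ratios were -0.05 (10 days) and -0.26 (5 weeks), the fitted genotype median was -0.15, and the median of 5 weeks over 10 days in WT was 0.27. For 10285 genes of 2000 bases or more these medians were 0, 0.04, 0.02 and 0.01. Short transcripts as a class thus lay on the same side as the 37 members, with an equal median at 10 days and smaller ones for the other 3 quantities, and the part of length in the members' values was not tested.

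Promoters of nuclear members are shown because these genes share the direction of their ratio at 5 weeks and because NRF1, GABPA (an ETS factor) and YY1 are known regulators of respiratory subunit genes. Entries from RefSeq (GRCm38.p6, 250 bases before to 50 after the start) matched 27 of the 37. On either strand the NRF1 core GCGCATGC was present in 4 (14.8%), against 2.71% of 32851 promoters, and the members were Cox6a1, Ndufa8, Sdhb and Uqcrc1. The ETS core CCGGAAG was present in 6 (22.2% against 8.86%) and the YY1 core AAGATGGC in 4 (14.8% against 2.75%). At least 1 of the 3 was in 12 of 27 (44.4% against 13.3%). Matches were allowed to overlap, as the 2 NRF1 matches on opposite strands do in Cox6a1. The 250 bases before the start follow, in capitals where a core matched, for Cox6a1 (chr5:115348959-115349208, minus strand; NRF1 at -162 and -160 and ETS at -16) and Sdhd (chr9:50603850-50604099, minus strand; ETS at -46).
Cox6a1: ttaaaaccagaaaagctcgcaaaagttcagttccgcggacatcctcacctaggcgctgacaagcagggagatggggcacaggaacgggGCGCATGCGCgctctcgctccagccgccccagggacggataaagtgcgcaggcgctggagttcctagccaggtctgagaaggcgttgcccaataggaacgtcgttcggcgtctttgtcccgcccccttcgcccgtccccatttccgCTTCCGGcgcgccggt
Sdhd: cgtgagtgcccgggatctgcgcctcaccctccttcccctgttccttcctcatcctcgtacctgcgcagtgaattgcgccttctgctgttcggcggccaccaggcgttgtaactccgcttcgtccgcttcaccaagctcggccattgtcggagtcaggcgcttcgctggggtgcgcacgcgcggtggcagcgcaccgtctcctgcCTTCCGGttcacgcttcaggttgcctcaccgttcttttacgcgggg
A match is a description of letters and not a measured site. Cox6a1 was at 84.89 CPM (WT) and 89.09 CPM (cKO) at 10 days, and at 111 CPM (WT) and 66.89 CPM (cKO) at 5 weeks. Sdhd, a membrane anchor of complex II, was at 46.33, 43.79, 68.09 and 52.08 CPM. At 5 weeks both had WT above cKO, but so did all 37 nuclear members, with or without a match. This order therefore does not set genes with a match apart, and a link to the cores was not tested.

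Other subunits of the same complexes, not among the 50, were mostly lower in the cKO library at 5 weeks too, with exceptions. Of 18 further complex I subunits 0 passed the genotype test in either direction, 18 of 18 had a ratio below 1 at 5 weeks (50.9% of all genes), and the fitted median was -0.21. In 5 of the 18 (27.8%) cKO lay below WT without overlap, near the 23.3% of all genes and below the 56.8% of the 37 members. Cycs, the gene of cytochrome c, was at 15.22 CPM (WT) and 16.24 CPM (cKO) at 5 weeks, and so higher in cKO. Ndufa11 was at 31.73 CPM (WT) and 27.2 CPM (cKO) at 10 days, and at 47.74 CPM (WT) and 23.33 CPM (cKO) at 5 weeks (adjusted p 0.461). Among 16 nuclear ATP synthase genes, the partners of mt-Atp6 and mt-Atp8, 0 passed in either direction and the median was -0.36. Atp5g1, a gene of the rotor ring, was at 43.29, 32.93, 63.04 and 32.75 CPM (unadjusted p 0.0305, adjusted p 0.388). At 5 weeks all 16 were below WT in cKO, with a median log2 ratio of -0.64, while mt-Atp6 and mt-Atp8 stood at 1.16 and 2.41.

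Enzymes of the TCA cycle, which feed the chain with NADH and succinate, had 0 of 16 passing in either direction, a fitted median of -0.29 and 13 of 16 with cKO below WT without overlap (23.3% of all genes). Citrate synthase, Cs, was at 159.8 CPM (WT) and 137.5 CPM (cKO) at 10 days, and at 245.2 CPM (WT) and 127.5 CPM (cKO) at 5 weeks. Glycolytic and hypoxia-responsive genes had a lower median, -0.52 over 21 tested of 22 listed, with 8 lower at an unadjusted p under 0.05 (5.8% of all genes) and 0 passing in either direction (0.0581% of all genes). Eno1, the glycolytic enolase, was at 273.4, 145.8, 426.7 and 136.3 CPM, a difference of -1.28 ± 0.276 (unadjusted p 0.00433, adjusted p 0.245, edgeR). At 5 weeks all 21 had cKO below WT, as the nuclear subunits had.

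Factors that copy mitochondrial DNA and make or process its RNA showed small differences. Of these 30 genes 0 passed in either direction, 2 were lower at an unadjusted p under 0.05 (5.8% of all genes), and median log2 ratios were 0 at 10 days and -0.26 at 5 weeks. Elac2, which cuts the 3′ ends of tRNAs out of mitochondrial precursors, was at 35.74 CPM (WT) and 26.73 CPM (cKO) at 10 days, and at 41.49 CPM (WT) and 22.53 CPM (cKO) at 5 weeks (unadjusted p 0.034, adjusted p 0.392). Of 14 regulators of mitochondrial biogenesis 0 passed and 0 had an unadjusted p under 0.05, with a fitted median of 0.11. Of 42 assembly factors 0 passed and 1 (Acad9, lower in cKO) had an unadjusted p under 0.05, with a fitted median of -0.14. At 5 weeks the median log2 ratio of these 3 lists was at most 0.05, that of the biogenesis regulators, far from the 1.08 of the mitochondrially encoded genes.

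Genes of the mitochondrial stress response were mixed. Of 18 genes 0 passed in either direction, and 4 were lower and 1 higher at an unadjusted p under 0.05, where 5.8% of all genes were lower and 5.8% higher. Psat1, an enzyme of serine synthesis, was at 24.56 CPM (WT) and 6.107 CPM (cKO) at 10 days, and at 53.65 CPM (WT) and 11.1 CPM (cKO) at 5 weeks, with no overlap. Its difference was -2.14 ± 0.237 (log2, SE; adjusted p 0.0947, edgeR), and it did not pass the threshold. Of 12 genes for transport across the mitochondrial membranes 0 passed and 1 was lower at an unadjusted p under 0.05, with a fitted median of -0.27. That gene, Slc25a5, an exchanger of ADP and ATP, was at 203, 152.4, 311.7 and 161.9 CPM. Of 12 antioxidant genes 0 passed and 1 was higher at an unadjusted p under 0.05, Hmox1, heme oxygenase, at 40.29, 73.31, 31.76 and 49.22 CPM (adjusted p 0.316).

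**Figure D5:**
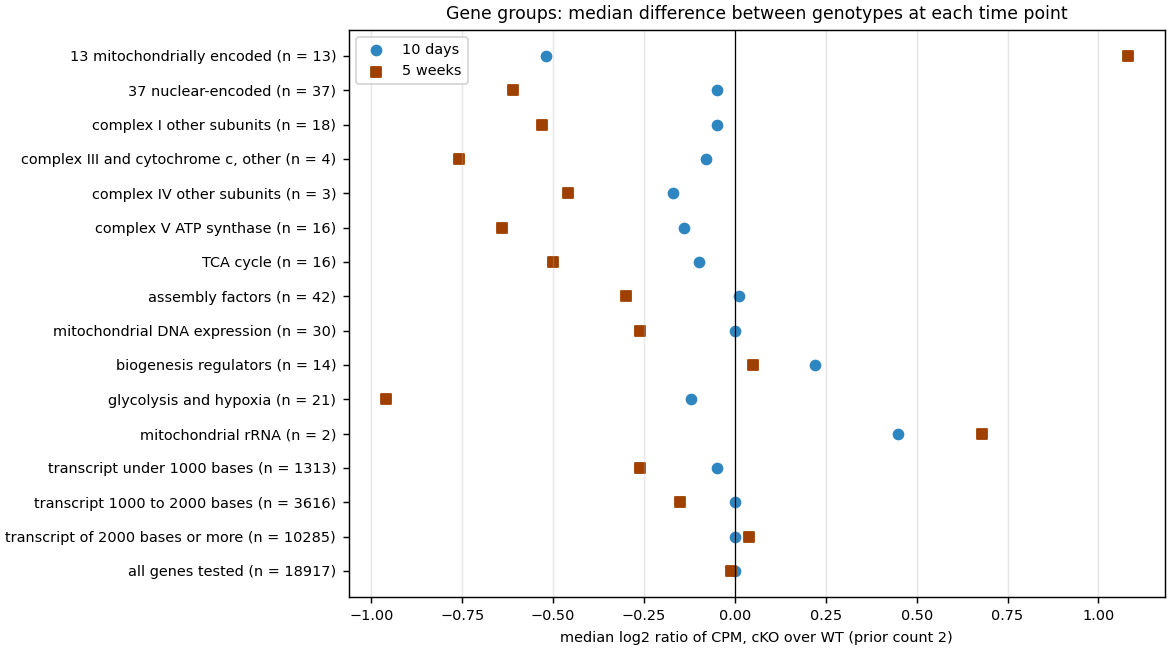
Median log2 ratio of cKO to WT at 10 days (circles) and 5 weeks (squares) for the members, other mitochondrial and metabolic gene lists, protein-coding genes by transcript length and all genes tested, with the number of genes tested. At 5 weeks the 13 mitochondrially encoded genes stand at 1.08 and the mitochondrial rRNA at 0.68, while the lists of nuclear subunits, ATP synthase and TCA cycle genes lie between -0.76 and -0.46.

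Markers of cell types moved with the libraries too, and their part in the members' values was not tested. The 11 basal markers summed to 5947 CPM (WT) and 2218 CPM (cKO) at 10 days, and to 18000 CPM (WT) and 2351 CPM (cKO) at 5 weeks, highest in the library where the nuclear subunits were highest. Krt5 (7819 CPM) and Krt14 (6504 CPM) made up most of that highest sum. In 7 of the 11 cKO was below WT without overlap (23.3% of all genes), and the other 4, Acta2, Myh11, Oxtr and Cnn1, genes of the contractile myoepithelium, were above WT in cKO at 5 weeks. Acta2 was at 1266, 623.4, 689.7 and 770.8 CPM, highest in WT at 10 days. The 10 squamous markers summed to 435.8, 45, 1820 and 121.7 CPM, and the 10 proliferation genes to 243.5, 128.4, 363.3 and 190.3 CPM. These sums were also highest in WT at 5 weeks, though Krt78 was highest in cKO at 10 days and Aurka in cKO at 5 weeks. The 10 fibroblast markers summed to 39580, 38410, 31660 and 60040 CPM, and the 10 leukocyte markers to 214.2, 223.4, 124.4 and 319.5 CPM. Both sums were highest in cKO at 5 weeks, as were the mitochondrially encoded genes, but not every marker was. Dcn, Fbln1 and Gsn (fibroblast) and Lyz2 (leukocyte) were highest in cKO at 10 days. Thy1 (fibroblast) and Cd68 (leukocyte) were highest in WT at 10 days. The 8 endothelial markers summed to 164, 206.4, 192.4 and 319.6 CPM, also highest in cKO at 5 weeks. At 5 weeks all 8 were above WT in cKO, as were 9297 of all 18917 genes tested. The 6 erythroid markers, at 33.09, 15.38, 36.84 and 85.05 CPM, were lowest in cKO at 10 days and highest in cKO at 5 weeks, the order of libraries that the mitochondrially encoded genes also had at these ends.

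Tissues rich in mitochondria were little represented. Of 12 skeletal muscle markers the sum was between 5.801 and 15.85 CPM, and Acta1, the muscle actin, was at 0.377, 3.113, 1.118 and 0.7651 CPM. Brown fat markers, 7 genes, summed to between 8.976 and 14 CPM, with Ucp1 at most at 0.3459 CPM. The 10 adipocyte markers summed to 584.8, 1424, 579.5 and 1455 CPM, and Adipoq was at 23.71 CPM (cKO) at 10 days and at most at 0.4708 CPM in the other libraries. The sum of the 12 luminal markers, between 7878 and 9868 CPM, differed less between libraries than the basal, fibroblast or adipocyte sums. Single luminal markers differed more, such as Esr1 between 48.15 and 165 CPM and Kit between 145 and 343.7 CPM. Krt8, the most abundant, was between 2396 and 3426 CPM.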

How the data were processed

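The authors deposited estimated counts, as whole numbers, for 54393 gene identifiers with 1 column per library. The submitters' processing notes list Salmon and the build GRCm38 without saying what each was used for or which version, and the annotation and any use of strand are not given in the sources used here. Salmon splits reads between transcripts that match equally well by estimation, so rows of near-identical genes are uncertain, as are overlapping or antisense genes. Members and lists were chosen with earlier results of these data known.

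Genes were filtered with filterByExpr (minimum count 10, 18917 genes, 99.9% of counts), scaled by TMM and modelled on time and genotype with the quasi-likelihood F test of edgeR 4.0.16 (robust, under R 4.3.3; 1 residual degree of freedom). The Benjamini-Hochberg adjustment covered every gene tested, threshold 0.05. Ratios within a time point are differences of log2 CPM (prior count 2), untested. An SE is the size of the log2 fold change over the root of its F. Sums over marker lists use all counts of a library. The fit was tested on simulated data, where 5 of 18293 unchanged genes were called. Copies were annotated GENCODE M21 transcripts matching a member at 95% identity over at least 100 bases on the same strand. All 13 mitochondrial genes, the most abundant and the highest and lowest genotype difference of each nuclear subgroup, and the 2 smallest p-values of each other list could be named, and Cox6a1 and Sdhd were added for their promoters. Cyc1, Cycs, Sdhb, Ndufs4 and the single markers were named after their values were seen. Alternatives used DESeq2 1.42.0 and limma 3.58.1.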

Additional observations from a re-analysis of the deposited data

Results flagged for a closer look

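Opposite directions at the 2 time points were found for the median of the 13 mitochondrially encoded genes, whose log2 ratio of cKO to WT was -0.52 at 10 days and 1.08 at 5 weeks, a difference of 1.6. With 1 library per genotype and time the difference was not tested, here or for the genes that follow. Ratios of opposite sign, both at least 0.5 in size, were seen for 9 genes as the rows stand, and for 4 of them (mt-Nd4, mt-Nd4l, mt-Nd5 and mt-Cytb) with nuclear copies summed. The summed medians were -0.40 and 0.98, a difference of 1.38. From 10 days to 5 weeks the log2 ratio differed by 5.22 for mt-Nd3, 1.65 for mt-Nd4, 1.86 for mt-Nd4l and 1.06 for mt-Nd5 of complex I. The difference was 1.05 for mt-Cytb of complex III, and 1.03, 1.74 and 2.32 for mt-Co1, mt-Co2 and mt-Co3 of complex IV. For mt-Atp6 of complex V it was 1.74. The value of mt-Nd3 rests on 16 counts in cKO at 10 days, where its nuclear copy held 1369 counts. With copies summed the difference was 1.83 for mt-Nd3, 0.98 for mt-Co2, 1.40 for mt-Co3, 0.96 for mt-Co1, 1.71 for mt-Atp6 and 1.82 for mt-Nd4l, and it stayed at 1.65 for mt-Nd4, 1.06 for mt-Nd5 and 1.05 for mt-Cytb.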

How the results depend on the processing

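The calls depended on the filter and the tool more than on scaling. Without a filter on low counts 1 member was called for genotype (mt-Atp8) and 4 for time (mt-Co2, mt-Co3, mt-Atp6 and mt-Atp8), in fits that called 1235 and 638 genes, and DESeq2 called 1 member for time. Calls over all genes for genotype were 11, and 5, 3, 8 and 3 with RLE factors, upper-quartile factors, library totals and sizes without mitochondrial genes, 513 with DESeq2, 20 with limma-voom and 0 without the time term; for time they were 12 and 192 with DESeq2. With copies added the mitochondrial shares were 1.56%, 1.11%, 1.42% and 2.43%. The median over the 37 nuclear genes kept its sign for genotype in every fit (-0.54 to -0.10), and that over the 13 went from -0.53 to 0.82 as single libraries were left out and the time term dropped, against 0.35 with that term alone dropped. Time pairs 1 WT with 1 cKO library and is the block of the fit reported. The labels carry no replicate numbers, so there was no other pairing to fit.

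For the 24 genes named with tests, 204 of 216 other values were unchanged in direction and call and 11 changed sign, the cause not being tested: mt-Nd5 0.02 and mt-Co1 0.02 with upper-quartile factors, mt-Nd6 0.03 and mt-Cytb -0.03 with limma-voom, mt-Nd3 0.40, mt-Nd5 0.06, mt-Nd6 0.04, mt-Co1 0.08 and mt-Co2 0.01 without the time term, and mt-Nd3 0.59 and mt-Co2 0.17 with copies summed. Leaving out 1 library at a time, without the time term, gave 24 changes of sign among 96 values. The ranges were -0.30 to 0.78 for mt-Nd1, -0.33 to 0.97 for mt-Nd2, -4.41 to 1.36 for mt-Nd3, -0.42 to 1.01 for mt-Nd4, -0.58 to 0.82 for mt-Nd4l, -0.49 to 0.44 for mt-Nd5, -0.61 to 0.47 for mt-Nd6, -0.48 to 0.49 for mt-Cytb, -0.53 to 0.49 for mt-Co1, -1.41 to 0.70 for mt-Co2, -0.87 to 1.52 for mt-Co3 and -0.96 to 1.44 for mt-Atp6. Among nuclear genes they were -0.25 to 0.04 for Sdha, -0.53 to 0.16 for Ndufs7, -0.63 to 0.13 for Ndufb10 and -0.34 to 0.16 for Cox8a. With 1 library left in a genotype, its spread is assumed to equal that of the others. Counts were lowest for mt-Nd3 and mt-Nd6, with 16 and 99 in cKO at 10 days. For mt-Nd3 this reflects the split with its nuclear copy, which held 1369 counts in that library, and not depth alone.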
